A study of Mus musculus with 4 samples.

Results

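Open chromatin at the genes for transfer RNAs (tRNAs) was examined in mouse colonic organoids, cultures that grow as self-organised epithelium from colon tissue. The members were chosen by position. A region of the deposited peak list was taken when it lay on chromosomes 1 to 19 and had a summit, its local maximum of signal, within 1000 bp of an outer end of an annotated tRNA gene. This rule took 201 of 111280 distinct regions on these chromosomes (113404 on all chromosomes), at 266 of 386 tRNA genes. A tRNA gene with such a summit is called open here and a gene with none is called closed, which says only whether the authors' peak caller reported a summit there.

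Bulk ATAC-seq was used, an assay in which a transposase, Tn5, cuts and tags accessible DNA. The labels give 4 libraries, 1 each of organoids from mice with colitis treated with T-5224, an inhibitor of the transcription factor AP-1, at 10 µM for 24 hours, from healthy control mice treated likewise, from mice with colitis given 0.1% DMSO for 24 hours, and from control mice given DMSO. All groups are wild type and share the batch DSS33, the culture in WENR medium (with Wnt, EGF, Noggin and R-spondin), and freezing before nuclei were taken. The submitters gave a single peak list with no value for any library, so colitis could not be set against control, nor T-5224 against DMSO. Which libraries entered the list, and how many mice gave the organoids, is not stated in the labels. The labelled cell type was checked against markers. All 10 colonic epithelial genes had a summit within 1000 bp of an outer end (median fold 35.9; Krt8, a simple-epithelial keratin, 59.1-fold), against 3 of 8 leukocyte genes (highest Cd4, 8.81-fold; Ptprc, Cd3e and Cd79a had none) and 3 of 8 fibroblast, endothelial and muscle genes (highest Col1a1, 16.3-fold; Col3a1, Pdgfra, Pecam1 and Cdh5 had none). Over all protein-coding genes on chromosomes 1 to 19 the share was 65.9%. Within the gene, Pdgfra (8.81-fold), Cdh5 (8.35-fold), Pecam1 (4.75-fold) and Col3a1 (3.25-fold) did have summits, while Ptprc, Cd3e and Cd79a had none there either.

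Nuclear tRNA genes are transcribed by RNA polymerase III. Their promoter lies inside the gene, as an A box near the start and a B box further in, which are bound by TFIIIC; TFIIIC then places TFIIIB just upstream, and TFIIIB recruits the polymerase. A run of T residues after the gene ends transcription. Mammalian genomes carry many tRNA genes for most anticodons, in clusters and as single genes, and only some of them are active in a given cell type.

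This layout can be read in the 4 tRNA genes whose whole sequence lay inside a promoter window of the RefSeq table (GRCm38.p6, the assembly that mm10 represents). All 4 were open, at 19.5-fold for n-TTagt9 (threonine, chr7:35234770-35234843, minus strand), 58.9-fold for n-TRtcg5 (arginine, chr7:79466419-79466491, plus strand), 20.6-fold for n-TAagc16 (alanine, chr13:21222586-21222657, plus strand) and 25.4-fold for n-TVcac9 (valine, chr13:23446142-23446214, minus strand). They are shown as the only members with sequence in the table. No strand was annotated, so the strand given for each gene is the one with more matches to the A and B box consensus. Each line gives the gene 5′ to 3′ on that strand, followed by up to 30 bases. The capitals mark, in order, the match to the A box consensus, the anticodon, the match to the B box consensus and the first run of TTTT after the gene:
n-TTagt9: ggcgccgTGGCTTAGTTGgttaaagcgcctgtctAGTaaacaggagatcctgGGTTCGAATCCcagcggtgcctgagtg
n-TRtcg5: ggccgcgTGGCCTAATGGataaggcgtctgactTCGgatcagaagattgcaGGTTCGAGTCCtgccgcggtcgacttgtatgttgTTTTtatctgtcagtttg
n-TAagc16: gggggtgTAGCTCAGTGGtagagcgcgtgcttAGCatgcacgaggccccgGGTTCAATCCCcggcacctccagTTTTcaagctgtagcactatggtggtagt
n-TVcac9: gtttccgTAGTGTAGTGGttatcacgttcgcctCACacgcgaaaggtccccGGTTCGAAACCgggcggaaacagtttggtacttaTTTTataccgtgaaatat
The A box match started at base 8 in all 4 genes, and the B box match at base 51, 52 or 53, counted from the first base of the gene. Only the anticodon of the gene's name was searched for, so the capitals could show no other. It was present near the middle of all 4 genes, starting at base 33, 34 or 35. A TTTT run started 13 bases after n-TRtcg5 and n-TVcac9 and 2 bases after n-TAagc16. The 5 bases left in the window after n-TTagt9 held none. Both consensus boxes on 1 strand occurred in 24 of 32817 promoter windows (0.0731%), and 4 of these 24 windows overlapped an annotated tRNA gene. Singly, the A box consensus was found in 22.4% and the B box consensus in 0.363% of windows. All searches covered both strands. Stricter forms of the boxes were found in 5.03% (A box) and 0.122% (B box) of windows, and in these 4 genes the strict A box matched in n-TTagt9 and the strict B box in the 3 genes other than n-TAagc16. A match describes the letters only. No closed tRNA gene lay inside a window, so open and closed genes could not be compared by sequence.

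The 201 tRNA regions were strong and wide for this list. The fold at a summit is the authors' ratio of the local pileup to the expected background, read here as having 1 added to both. It is a value of the peak, not of a sample. Its median over the strongest summits of the tRNA regions was 17.7 (interquartile range 6.26 to 31.4, range 2.09 to 79.3), against 4.99 over the 111079 other regions. Their median width was 1333 bp, against 481 bp in other regions. A region can hold several summits: 127 of the tRNA regions (63.2%) did so, against 21.6% of other regions. The 15987 other regions with a summit within 1000 bp of a protein-coding end had a median of 17.7-fold and 1219 bp, close to the tRNA regions. The tRNA regions differed among themselves by the same feature. The 45 that also had a summit within 1000 bp of a protein-coding end had a median of 31.9-fold and 2313 bp, and 93.3% had more than 1 summit. The 156 without one had a median of 12.5-fold and 1033 bp, and 54.5% had more than 1 summit, against 4.64-fold, 452 bp and 16.6% in the 95092 other regions without a coding end. For the 120 tRNA regions with no other annotated gene end of any kind the median was 10.4-fold.

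Of the 11 tRNA regions above 50-fold, 10 had a protein-coding end. The strongest, at 79.3-fold (exact Poisson 95% interval 73.5 to 85.5, counting error only), held n-TRacg6, an arginine tRNA gene 226 bp from Prmt5, which encodes a protein arginine methyltransferase. It was followed by n-TIaat16 beside Plekhg2 (73.5-fold), n-TRacg2 beside Sacm1l, the gene of a phosphoinositide phosphatase (70.8-fold), n-TNgtt8 between Pcgf2 and the proteasome gene Psmb3 (64.6-fold) and n-TMcat11 beside Ilf2, which encodes a double-stranded RNA-binding factor (63.8-fold). The sixth, n-TRtcg5 at 58.9-fold, had no outer coding end within reach but lies inside Polg, the gene of the mitochondrial DNA polymerase, 146 bp from a Polg start in the promoter table. The rest of the first 10 were the regions of n-TVcac7 beside Trim41 (57.6-fold), n-TWcca2 and n-TDgtc16 beside Tmpo (53.4-fold), n-TIaat4 beside Borcs6 (53.3-fold) and n-TVaac8 beside Mynn (52.3-fold). In these last regions the strongest summit lay 1118 to 2707 bp from the tRNA gene, and the tRNA gene had other summits in reach. Those of the same region reached 28.9-fold at n-TVcac7, 53.2-fold at n-TWcca2 and 25.04-fold at n-TVaac8. At n-TIaat4 the strongest summit in reach, 31.9-fold, belonged to the neighbouring region chr11:69061763-69064400. At the weak end, 37 of the 201 regions were under 5-fold. Of the 201 regions, 134 reached 1 tRNA gene and 67 reached 2 to 5, so neighbouring tRNA genes share summits and their values are not independent.

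By gene, 266 of 386 tRNA genes were open (68.9%, Wilson 95% interval 64.1 to 73.3, for counting error only), beside 65.9% of 20560 protein-coding genes under the same rule, a share inside that interval. The share was 37.2% for 12324 lncRNA genes and 8.92% for 8798 pseudogenes. When the tRNA gene ends were moved by 50 kb, 20.5% (up) and 19.2% (down) had a summit within 1000 bp. Without the moved positions that fell within 2 kb of a tRNA gene, these shares were 18.6% and 15.6%. For a window around 1 end only, 40.8% of protein-coding ends had a summit.

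Summits lay close to the tRNA genes. The closest summit was a median of 74 bp from an outer end of an open gene (interquartile range 36.3 to 122 bp), within 100 bp at 176 genes and within 250 bp at 237. It lay inside the gene itself in 29 and over 500 bp away in 8. The strongest summit in reach was farther off, at a median of 143 bp. Open genes had a median length of 73 bp and closed genes of 72 bp. From closed genes the nearest summit was a median of 12703 bp away. The 1000 bp limit fell in a sparse stretch. The farthest open genes were n-TAagc12 (976 bp, 6.49-fold), n-TEctc3 (964 bp, 2.32-fold) and n-TLcag7 (760 bp, 7.88-fold). The nearest closed ones were n-TGgcc1 (1064 bp), n-TCgca35 (1130 bp), n-TEctc7 (1208 bp) and n-TTagt1 (1208 bp).

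Summits were counted by distance from the gene centre, with both sides added, around the 234 tRNA genes that lie over 5 kb from any protein-coding end and outside the largest cluster, the cysteine genes on chromosome 6. There were 16.3 summits per 100 genes and 50-bp step of distance up to 200 bp, 2.14 between 200 and 300 bp, and 9.83 between 300 and 500 bp. The same positions moved by 50 kb had 1.60, 0.855 and 1.82, and protein-coding ends had 7.07, 2.54 and 2.96. With that cluster included, the 282 tRNA genes over 5 kb from a coding end had 13.7, 1.95 and 8.33. At the 81 tRNA genes with neither another tRNA gene nor a coding end within 5 kb, 6 of which are in that cluster, the 3 values were 9.88, 3.09 and 2.78. Of those 81 isolated genes, 39 were open (48.1%, interval 37.6 to 58.9). These distance limits were set after the profile was seen.

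**Figure D1:**
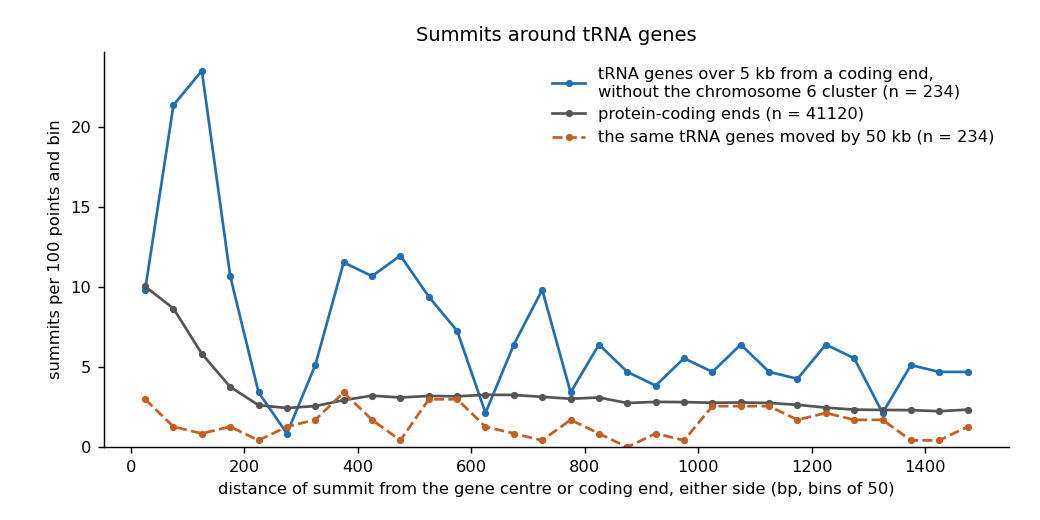
Summits per 100 points in steps of 50 bp (vertical axis) by distance from the centre of 234 tRNA genes over 5 kb from a coding end and outside the chromosome 6 cluster, from protein-coding ends, and from the same tRNA genes moved by 50 kb (horizontal axis, bp, both sides added). The tRNA curve is high up to 200 bp (16.3 on average), low between 200 and 300 bp (2.14) and high again from 300 to 500 bp (9.83), while the moved positions stay between 0.855 and 1.82 on average in these 3 zones. The second rise was not seen at the 81 tRNA genes with neither another tRNA gene nor a coding end within 5 kb (9.88, 3.09 and 2.78, not drawn).

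All 47 tRNA genes with a protein-coding end within 1 kb were open (100%, interval 92.4 to 100), against 219 of the 339 without one (64.6%, interval 59.4 to 69.5). The difference was 35.4 percentage points (Newcombe 95% interval 26.4 to 40.6). Their strongest summits in reach had a median of 31.2-fold with a coding end (range 5.45 to 79.3) and 18.3-fold without (range 2.09 to 58.9), so the ranges overlapped over most of their length. Outside clusters, 32 of 32 genes with and 63 of 102 genes without a coding end were open, a difference of 38.2 points. The 47 genes lay beside 37 distinct protein-coding genes, and all 37 of these had a summit at their own ends, so a summit of the coding gene can fall in the window of the tRNA gene. The strongest summit was closer to the tRNA gene in 25 of the 47 and closer to the coding end in 22. The closest summit of any strength was within 250 bp of the tRNA gene in 44 of them. The pairs at the low end were n-TGgcc12 (5.45-fold) and n-TLcag6 (6.49-fold) beside Fcgr3, a leukocyte Fc receptor gene. Among the high ones was n-TLaag4, a leucine tRNA gene 180 bp from Polr3e, which encodes a subunit of RNA polymerase III itself (49.4-fold, interval 44.8 to 54.3).

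An outer end need not be a start. By the promoter table, 27 of the 47 genes had a coding start within 1 kb (27 of 27 open, median 39.9-fold) and 20 had only an end without a start (20 of 20 open, 27.5-fold). Another 4 genes had a coding start but no outer end within reach, and 2 of them were open. Neither was present at 335 genes, of which 217 (64.8%) were open. Of the 48 tRNA genes whose only neighbour within 1 kb was the end of a non-coding gene, 37 were open (77.1%). With no gene end of any kind it was 182 of 291 (62.5%). Among genes without a coding end within 1 kb, those inside a protein-coding gene were open in 13 of 27 cases (48.1%, interval 30.7 to 66.0) and those between genes in 206 of 312 (66.0%, interval 60.6 to 71.1).

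Beyond 1 kb from a protein-coding end, the open share was similar up to 20 kb and lower farther out. It was 46 of 57 (80.7%) at 1 to 5 kb, 126 of 154 (81.8%) at 5 to 20 kb, 43 of 98 (43.9%) at 20 to 100 kb and 4 of 30 (13.3%) beyond 100 kb. Leaving out the large cysteine cluster on chromosome 6, which holds many of the remote genes, gave 42 of 67 (62.7%) at 20 to 100 kb and 1 of 13 (7.69%) beyond. Open genes lay a median of 7692 bp from a coding end and closed genes 45863 bp. The open gene farthest from any coding end was n-TEttc7, a glutamate tRNA gene on chromosome 7 that is 256756 bp from Atp10a. It was also strong, at 34.5-fold (interval 30.7 to 38.7), with a summit 49 bp from the gene. The next were n-TCgca32, n-TCgca48 and n-TCgca49 in the chromosome 6 cluster (2.32-, 7.19- and 6.26-fold) and n-TNgtt9 on chromosome 2 (85318 bp, 11.6-fold).

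**Figure D2:**
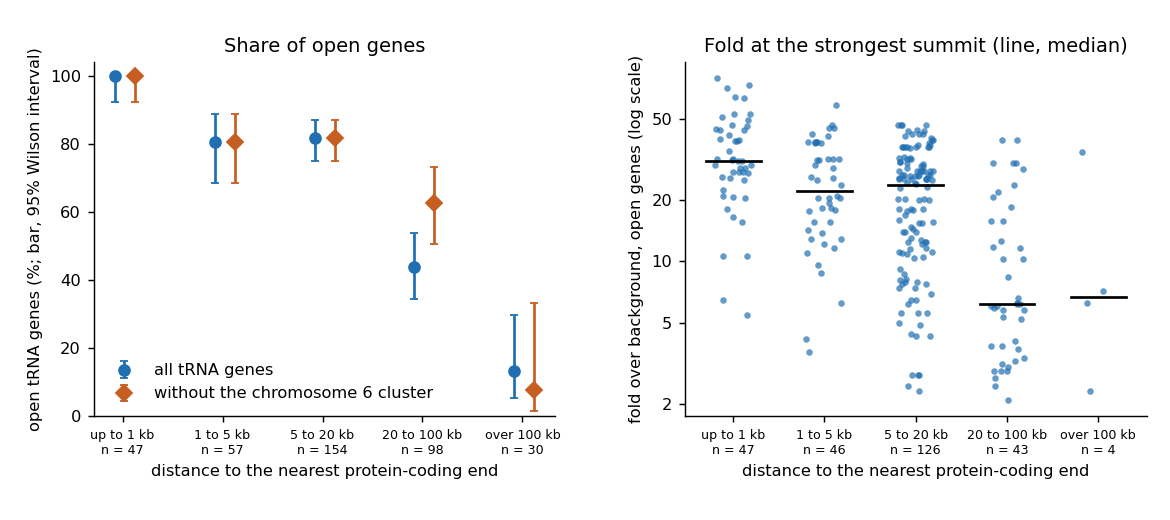
Left, open share of tRNA genes (%, with Wilson 95% intervals) by distance to the nearest protein-coding end, for all genes and without the chromosome 6 cluster. Right, fold at the strongest summit of each open gene (log scale, line at the median). The share is 100% up to 1 kb and 13.3% beyond 100 kb, and open genes at 20 to 100 kb have a median of 6.14-fold, against 23.7-fold at 5 to 20 kb.

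Clusters were formed by joining tRNA genes with gaps of at most 50 kb, which gave 13 clusters of 5 or more genes. Of the 252 genes in them, 171 were open (67.9%, interval 61.9 to 73.3), against 95 of the 134 genes outside (70.9%, interval 62.7 to 77.9). The interval of the difference of −3.04 points, −12.3 to 6.80, includes 0. The balance depended on 1 cluster: without the largest, 167 of 204 clustered genes were open (81.9%), 10.97 points above the genes outside (interval 1.82 to 20.4). Clustered open genes had weaker summits, with a median of 15.8-fold against 31.0-fold outside. Genes outside clusters were not alike either. Pairs, triplets and groups of 4 were open in 40 of 42 cases (95.2%, interval 84.2 to 98.7), and genes with no other tRNA gene within 50 kb in 55 of 92 (59.8%, interval 49.6 to 69.2). The 42 genes can share summits, so their interval is too narrow. They lay in 21 loci, formed by joining genes with gaps of at most 2000 bp, and 19 of these loci held an open gene.

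The largest cluster was mostly closed. It holds 48 cysteine tRNA genes at chr6:48133937-48363603, all with the anticodon GCA, and 4 of them were open (8.33%, interval 3.29 to 19.6). These were n-TCgca38 (5.33-fold, 360 bp away), n-TCgca49 (6.26-fold, 28 bp), n-TCgca48 (7.19-fold, 124 bp) and n-TCgca32 (2.32-fold, 224 bp). All 4 were below the median of open genes outside clusters (31.0-fold). No coding end lies within 1 kb of any of the 48.

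At the other extreme, 5 clusters had every gene open. The largest of these was chr11:69037003-69125248, with 18 of 18 open (interval 82.4 to 100) for 11 amino acids. It is interleaved with Aurkb, Borcs6, Tmem107, Vamp2, Per1 and Hes7, and 9 of its tRNA genes have a coding end within 1 kb. Its folds, 10.7 to 38.5, fell on 6 regions. The others were chr11:48818542-48857055 around Trim7 (8 of 8, median 32.0-fold), chr19:12002236-12012338 (8 of 8, 33.04-fold), chr14:51063883-51090718 around Olfr750 (7 of 7, 42.3-fold) and chr5:125404250-125409543 (5 of 5, 18.3-fold). The first of these and the chromosome 14 cluster each have 1 tRNA gene with a coding end within 1 kb, and those on chromosomes 19 and 5 have none. On chromosome 17, 6 of 7 genes were open at chr17:23533962-23550335 (18.96-fold), with n-TPcgg1 closed.

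Chromosome 13 carries 4 clusters with 82 of 101 genes open, amid histone and zinc-finger genes. In chr13:23397060-23530419, 34 of 36 genes for 15 amino acids were open at a median of 11.9-fold, with only n-TYgta6 and n-TWcca3 closed. The strongest there was n-TMcat9, a methionine tRNA gene 625 bp from the histone gene H4c8, at 46.4-fold, and the weakest n-TWcca4 at 2.43-fold. In chr13:21848022-22050767, which contains H2ac12, H2bc12, H4c9, H2ac11 and H2bc11, 24 of 32 were open (75%, median 10.4-fold). The lysine genes n-TKttt22 and n-TKttt23, the 2 analysed with the anticodon TTT, were among the closed. In chr13:21160785-21326789 around Trim27, Gpx5 and Gpx6, 16 of 24 were open (15.5-fold). The fourth, chr13:23270421-23317538, had 8 of 9 open, but at 2.09- to 6.14-fold (median 2.90). With summits of a −log10 q of at least 10 only, 3 of 9 were open there and 28 of 36 in the neighbouring cluster of 36.

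On chromosome 1, at chr1:171033942-171111515 around Fcgr3, 19 of 25 genes were open at a median of 20.4-fold. Glutamate, glycine, aspartate, leucine and glycine genes recur there in the same order along much of the cluster. The copies n-TEctc5, n-TGtcc1 and n-TDgtc3 shared 1 summit of 20.4-fold, whereas the copies n-TEctc8, n-TGtcc5 and n-TDgtc7 and the copies n-TEctc7, n-TGtcc4 and n-TDgtc6 were closed. In these last repeats the leucine and glycine genes n-TLcag7 and n-TGgcc13 (7.88-fold) and n-TLcag8 and n-TGgcc14 (4.29-fold) were open on weak summits. On chromosome 3, at chr3:96322074-96501518 around BC107364, 14 of 25 genes were open (56.0%, median 10.1-fold). Its 5 strongest genes, n-TNgtt12, n-TKctt16, n-THgtg8, n-TGtcc7 and n-TEctc13, stood together at the far end with 18.4- to 30.6-fold, and the 5 genes from n-TNgtt11 to n-THgtg1 in the middle were closed. Near-identical gene copies can share reads; whether that lowered the values in the clusters on chromosomes 1, 3, 6 and 13 was not tested.

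**Figure D3:**
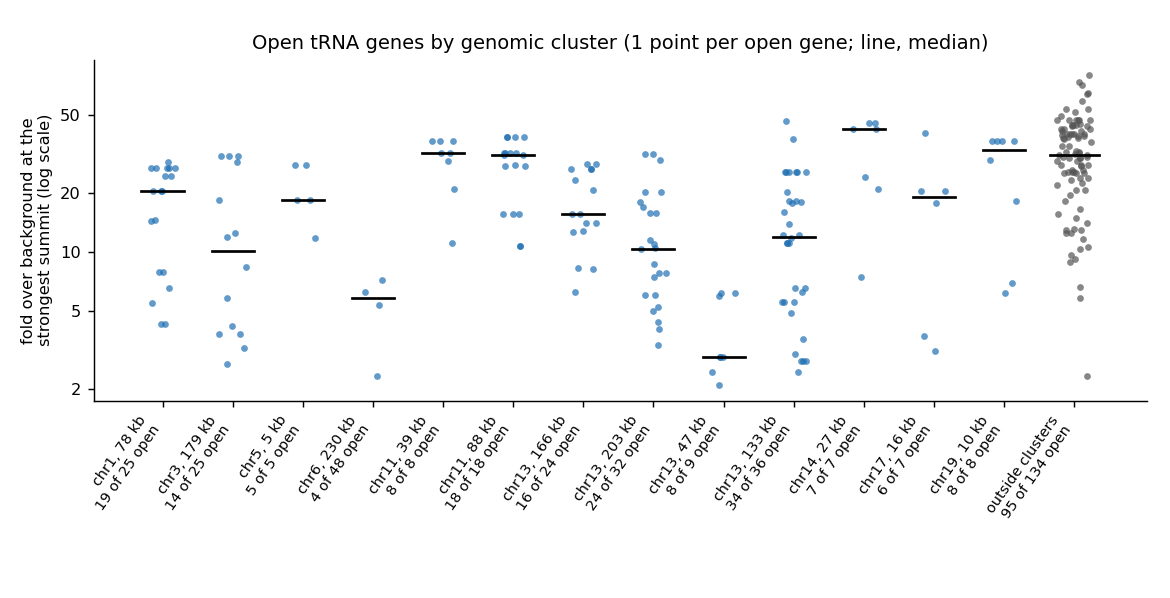
Fold at the strongest summit in reach (log scale) for each open tRNA gene, by cluster of 5 or more genes and for genes outside clusters, with lines at the medians and open counts under the axis. The chromosome 6 cluster and the 47 kb cluster on chromosome 13 lie low (2.32 to 7.19 and 2.09 to 6.14), and genes outside clusters have a median of 31.0.

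**Figure D4:**
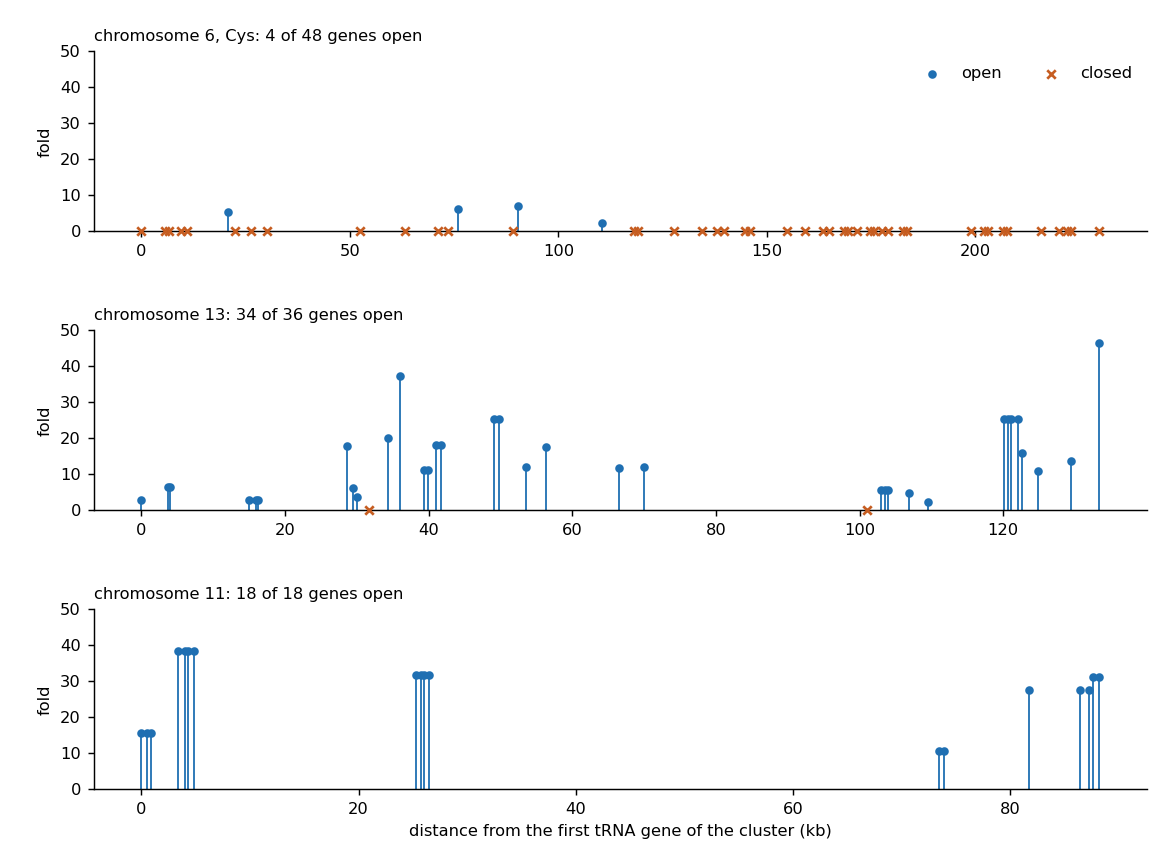
Position of each tRNA gene in 3 clusters (horizontal axis, kb from the first gene) against fold at its strongest summit (vertical axis, linear; crosses at 0 are closed genes). On chromosome 6, 4 of 48 cysteine genes are open at up to 7.19-fold, and on chromosome 13, 34 of 36 are open at up to 46.4-fold. On chromosome 11 all 18 are open, with their strongest summits on 6 regions.

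By amino acid, cysteine stood lowest with 11 of 57 genes open (19.3%, interval 11.1 to 31.3), followed by histidine with 6 of 11 (54.5%, interval 28.01 to 78.7) and lysine with 15 of 25 (interval 40.7% to 76.6%). The highest shares were those of phenylalanine with 7 of 7 (100%, interval 64.6 to 100), arginine with 22 of 23 (95.7%, interval 79.0 to 99.2) and serine with 20 of 22 (90.9%, interval 72.2 to 97.5). Most intervals of the other amino acids overlapped between neighbours in this order. The interval of arginine lay above those of histidine and lysine, but not with a 250 bp window, where arginine's began at 67.9% and those of histidine and lysine ended at 78.7% and 73.3%, nor with only the strongest summit of each region, where arginine's began at 62.9%. It overlapped both also when a summit counted only for the nearest tRNA gene or only if nearer to the tRNA gene than to a coding end (from 73.2% for arginine in each), and overlapped that of histidine among genes outside clusters. Cysteine was 58.2 points below all other amino acids together (interval −67.4 to −45.2 for cysteine minus the others). Outside the chromosome 6 cluster it was 7 of 9 (77.8%), against 255 of 329 (77.5%) for the others, a difference of 0.270 points (interval −32.5 to 16.9).

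Several amino acids were split by place. Lysine genes were open in 11 of 13 cases in clusters but in 4 of 12 outside them, and valine genes in 16 of 16 and 2 of 5. Over all tRNA genes the shares were 67.9% in clusters and 70.9% outside. Without the chromosome 6 cluster, which holds only cysteine genes, the share in clusters was 81.9%. These 2 amino acids were picked after the values were seen. Some clustered valine genes had weak summits, such as 4 in 1 chromosome 13 cluster (2.09- to 6.14-fold). With a −log10 q of at least 10, 14 of 21 valine genes (18 without that limit) and 13 of 25 lysine genes (15 without it) were open. The valine genes had the lowest median among open genes of any amino acid, 8.70-fold, and histidine (35.9-fold) and tyrosine (37.3-fold) the highest. For histidine this rests on 6 open genes, which ranged from 3.25- to 43.6-fold. Among the 48 anticodons, 17 had every gene open and 3 had none (histidine ATG with 1 gene, lysine TTT with 2 and serine GGA with 1). Of the 30 anticodons with at least 5 genes, 7 had every gene open: arginine ACG and TCG, leucine AAG, phenylalanine GAA, proline AGG, serine AGA and valine AAC. For glycine, 13 of 14 GCC genes (interval 68.5% to 98.7%) and 2 of 6 CCC genes (interval 9.68% to 70.0%) were open, and these intervals overlapped. Of the 4 closed CCC genes, n-TGccc1, n-TGccc5 and n-TGccc6 lie in the chromosome 3 cluster, so for these anticodon was not separated from place. The remaining one, n-TGccc3, lies outside the clusters, 187115 bp from the nearest coding start. The anticodons with every gene open include some with 1 gene, such as isoleucine TAT (4.06-fold) and glycine ACC (11.01-fold).

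**Figure D5:**
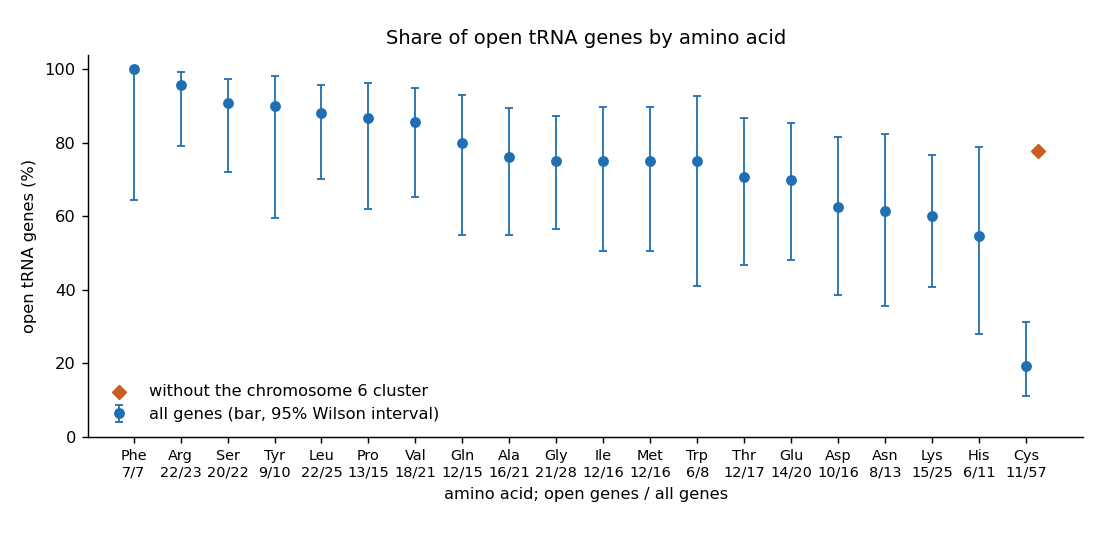
Open share of tRNA genes (%, with Wilson 95% intervals) for 20 amino acids, in order of the share, with open and total genes under the axis; the diamond is cysteine without the chromosome 6 cluster. Cysteine (19.3%) lies below the other amino acids (54.5% to 100%) and at 77.8% without that cluster.

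Nearly all listed genes whose products make and use tRNAs had a summit within 1000 bp of at least 1 of their outer ends. This was so for all 18 genes for RNA polymerase III subunits, some of which are shared with other polymerases (median 37.3-fold; Polr2h 66.5, Polr3k 58.2 and Polr1d 53.4). It was also so for all 10 for TFIIIB, TFIIIC and the repressor Maf1 (32.6-fold), among them Brf1, the TFIIIB subunit of tRNA genes, at 77.4-fold, Maf1 itself at 53.8 and Gtf3c1, the largest TFIIIC subunit, at 50.0. The same held for all 9 on the list for the snRNA-activating complex and TFIIIA, which serve the other classes of polymerase III promoter. That list also holds Brf2, Pou2f1 and Zfp143 (median 32.0-fold, with Zfp143 76.1, Pou2f1 47.3 and Snapc2 44.9). Its lowest was Snapc3, at 2.90-fold at its outer ends and 49.9-fold within the gene. All 20 cytoplasmic aminoacyl-tRNA synthetase genes, whose products charge tRNAs, had a summit (40.1-fold; Tars 60.9, Qars 60.6 and Lars 60.4). So did 31 of 32 genes for tRNA processing, modification and export (24.8-fold), led by the methyltransferase gene Nsun2 (75.2), the 3′ processing nuclease gene Elac2 (58.7) and the export receptor gene Xpot (57.6). The exception was Rpp40, a ribonuclease P subunit gene, with no summit at its outer ends and one of 43.9-fold within the gene. Over all protein-coding genes the share was 65.9% and the median, with 0 for no summit, 10.8-fold.

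Genes for other RNAs made by polymerase III were open in 9 of the 10 matched cases (median 43.4-fold). The shares were 68.9% over tRNA genes, 65.9% over protein-coding genes and 37.2% over lncRNA genes. The strongest were Rpph1, the RNA of ribonuclease P (61.2-fold), the signal recognition particle RNA gene Rn7s1 (59.7-fold) and the vault RNA gene Vaultrc5 (56.6-fold). Rnu6, a U6 spliceosomal RNA gene, had no summit. Among the open genes, only Vaultrc5 (56.6-fold) and Rn7sk (17.4-fold) had a summit within the gene itself. A summit of a neighbouring gene can fall in the window of these genes too, which was not tested. The listed name for 5S ribosomal RNA was not matched.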

How the data were processed

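The peak list was made by the authors with Bowtie2 and MACS2 on mm10, per the submitters' processing notes, without versions. The labels state no settings, duplicate handling or read depth. The deposited score is 10 times the deposited −log10 q; the lowest −log10 q was 1.51. The authors' fold is a linear ratio with 1 background for every base (7.63), taken as pileup plus 1 over background plus 1. Pileups could therefore be recovered: 100% of fold values were whole multiples of 1 step (tolerance 0.01), and intervals are exact Poisson intervals on those pileups. No p-value was computed, since 1 list has no replicates.

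Gene bounds came from the RefSeq gene table of GRCm38.p6, which gives no strand; amino acid and anticodon were read from gene symbols. Of 391 tRNA genes on chromosomes 1 to 19, 5 placed before the first region on any chromosome (position 2999927) were left out, as were 105 protein-coding genes, a choice made after the data were seen. The 17 tRNA genes on X and 22 mitochondrial ones are outside the rule. Calls of open genes were tested on simulated data with Python 3.11.15, numpy 2.4.6, pandas 2.3.3, scipy 1.17.1 and statsmodels 0.14.6. Named were the 10 strongest regions, every cluster of 5 or more genes, the 3 highest and 3 lowest amino acids, the 5 open genes farthest from coding ends and the 3 strongest of each list; no closed gene had a coding end within 1 kb, and no selenocysteine gene was matched by symbol. Other genes were named after their values were seen, and the box consensus forms were added then. The members and lists were chosen with earlier results of these data known.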

Additional observations from a re-analysis of the deposited data

How the results depend on the processing

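No paired analysis was possible because each of the 4 groups has 1 library and the list gives no value per library. Of the main shares, differences and counts, 40 values stayed within their interval or within 1.5 times and 10 moved. The open share was 61.4% with a 250 bp window, 63.7% with a −log10 q of at least 10, 63.7% with only the strongest summit of each region, and 77.5% without the largest cluster (an alternative added after the data were seen). The excess with a coding end within 1 kb was 41.3 points with a −log10 q of at least 10, 40.7 points with loci as the unit, 25.9 points with ends of any other gene, 26.1 points without the largest cluster, and 21.9 points with only the strongest summit of each region, where 39 of 47 genes were open. The difference between genes in and outside clusters, −3.04 points with an interval that includes 0, was 10.97 points without the largest cluster. The other settings gave −9.83 to 0.628 points; with clusters joined over gaps of up to 10 kb it was −9.58 points and the interval (−18.6 to −0.345) did not include 0. Among the shares by amino acid and single cluster and the median fold of the regions, 258 values held and 17 moved; with a 2000 bp window the median fold was 12.5. Counting covers the whole list only: with no value per library, neither depth nor spread between cultures could be given. A closed gene means only that no summit was reported there. Whether depth or reads shared between near-identical copies left genes without a summit was not tested.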

Other observations

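On the X chromosome, which the rule leaves out, 1 of 17 tRNA genes was open (5.88%, Wilson 95% interval 1.05 to 27.0), beside 367 of 963 protein-coding genes there (38.1%). The open one was the valine gene n-TVtac3 at 19.9-fold. The 12 alanine genes, which carry the anticodons TGC and CGC, were closed.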
